A study of Mus musculus with 6 samples.

Results

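Macrophages of the sciatic nerve were followed through 10 genes, of which 8 mark the cells and 2 encode factors that draw them in or keep them alive. The markers were *Csf1r*, *Mrc1*, *Cd163*, *Cd68*, *Lyz2*, *C1qa*, *C1qb* and *C1qc*, and the recruiting factors were *Csf1* and *Ccl2*. They were chosen by symbol and form 10 of the 24015 genes counted. RNA-Seq was performed on 6 libraries from mouse sciatic nerve at postnatal day 14, with 3 libraries per genotype and 3 nerves pooled in each. Control animals (ctrl) had the genotype Rnf40 fl/fl without Cre. Conditional knockouts (cko) had the same floxed alleles together with the Dhh::Cre transgene. The *Dhh* promoter drives Cre in Schwann cell precursors, from which fibroblasts of the endoneurium also descend. *Rnf40*, an E3 ligase that attaches ubiquitin to histone H2B, is thus lost from Schwann cells, while macrophages and endothelial cells are not expected to carry the deletion. The labels give a mixed 129SvJ/C57Bl/6J background for both genotypes, whereas the methods of the study name C3H in place of 129SvJ. No group carried Cre without floxed alleles.

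Peripheral nerves hold resident macrophages in the endoneurium, next to the axons, and in the epineurium, the outer sheath. They survive and divide on signals through the receptor CSF1R, which binds CSF1 and IL-34, and they take up myelin debris after injury. CCL2 attracts monocytes that carry its receptor CCR2, and in mouse models of inherited myelin disease CSF1 from fibroblasts and CCL2 from Schwann cells are known to drive the build-up of macrophages in the nerve.

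Between 1317167 and 2468765 reads were counted per library. Levels are given in CPM, reads per library size after scaling by TMM, which corrects for differences in RNA composition. A gene with 1 read thus had 0.411 to 0.818 CPM, depending on the library. The 8 markers together received 566, 776 and 1067 reads in control replicates 1, 2 and 3, and 747, 497 and 781 reads in cko replicates 1, 2 and 3. The targeted gene was measured first as a check of the labels. *Rnf40* had 67.1, 65.1 and 73.1 CPM in control and 46.5, 46.6 and 48.5 CPM in cko nerves, so that the genotypes did not overlap and the direction followed the labels. Its log2 fold change (cko over control) was -0.54, with a standard error (SE) of 0.14 and an edgeR adjusted p of 0.00243. This call was lost under total-count scaling (-0.27, adjusted p = 0.116) and under scaling to fibroblast and endothelial genes (-0.06, adjusted p = 0.786). cko replicate 3 stood apart from the other cko libraries in skeletal muscle genes. The 15 muscle genes summed to 5908, 6556 and 6148 reads in control, to 230 and 417 reads in cko replicates 1 and 2, and to 8263 reads in cko replicate 3. It was thus cko replicates 1 and 2 that departed from the controls in these genes.

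Of the 8 macrophage markers, 7 fell in cko nerves, and in all 8 every cko library was below every control library. *Csf1* overlapped between the genotypes, and *Ccl2* had too few reads for a test. The direction held under TMM, RLE and total-count scaling, but that of *Mrc1*, *C1qb*, *C1qc* and *Lyz2* turned when libraries were scaled to fibroblast and endothelial genes. The summed level of the 8 markers was 463, 435 and 473 CPM in control and 319, 309 and 321 CPM in cko nerves, a ratio of 0.691 between the means. Of the 10 genes, 9 had enough reads to be tested, and 7 were called lower (edgeR quasi-likelihood test, adjusted p at or under 0.05). The same call was made for 16.2% of the 11371 genes tested. None of the 9 was called higher, against 15.5% of all genes, and none was higher by unadjusted p or with DESeq2, where 0 were counted in each case. Of the 11371 genes, 2306 were higher by unadjusted p and 1172 with DESeq2. Without overlap of the libraries, and lower in cko nerves, were 8 of the 9, against 21.6% of all genes tested. Fewer members were called with DESeq2 (4), without control replicate 2 (4) and under total-count scaling (2), and 0 were called lower under the scaling to fibroblast and endothelial genes. The share of all genes called lower was 11.3%, 13%, 7.79% and 3.64% in these fits. Counts from whole nerve do not tell the number of macrophages from the amount of these transcripts per macrophage.

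**Figure D1:**
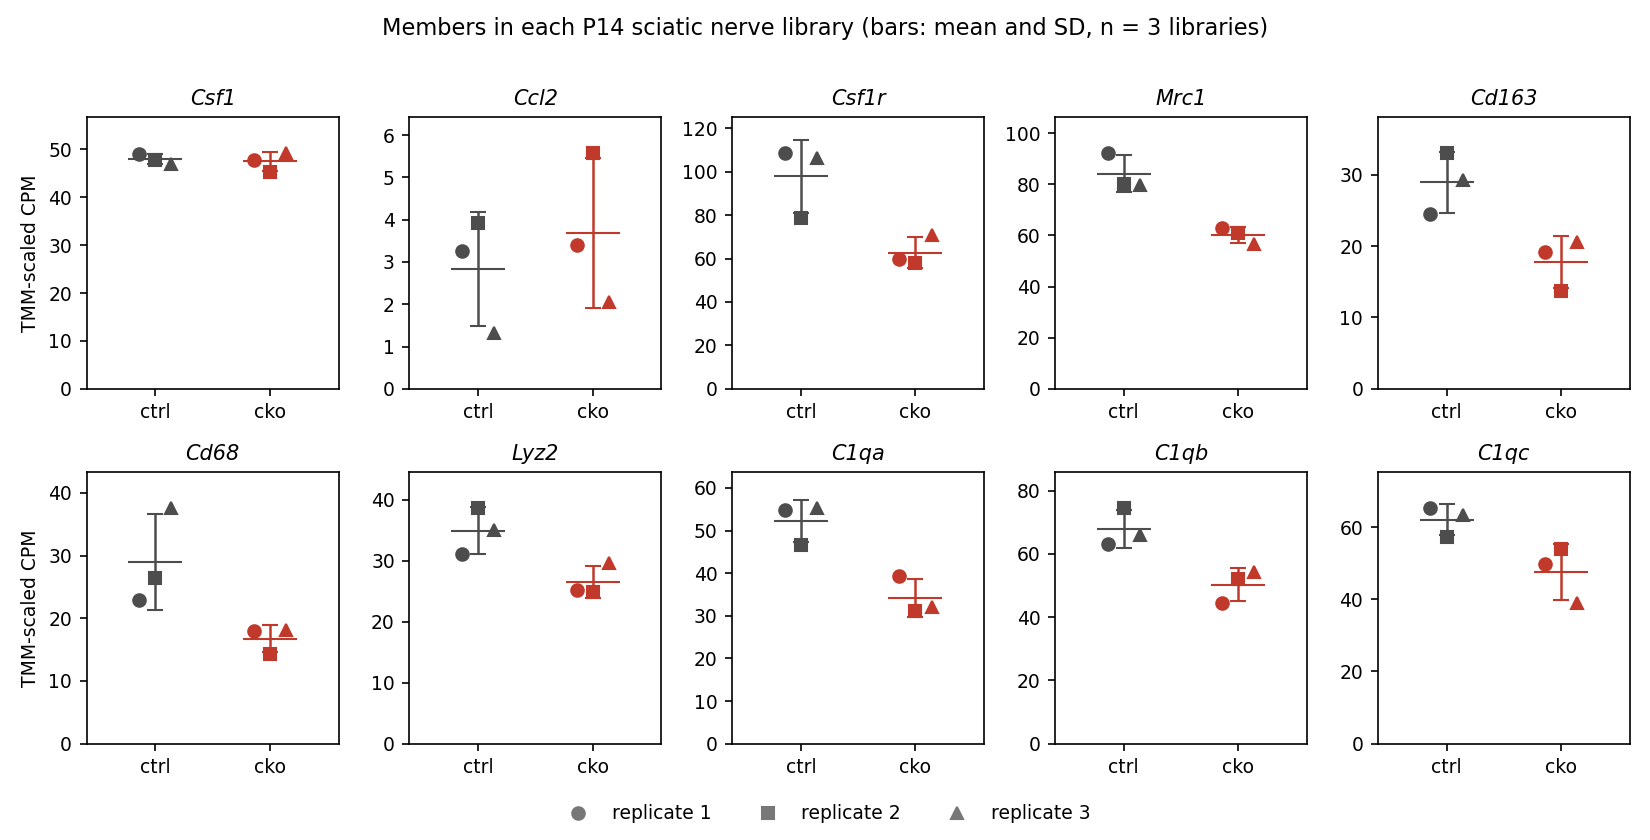
TMM-scaled CPM (y axis, from 0) of the 10 genes in each control (grey) and cko (red) library, with symbols for the replicates and bars for the mean and SD of 3 libraries. The cko libraries lie below the control libraries in the 8 markers and overlap with them in *Csf1* and *Ccl2*, under the TMM scaling shown.

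*Csf1*, the growth factor for macrophages, lies at chr3:107543966-107563387 on the minus strand (mm9). It had 49.1, 47.7 and 47.0 CPM in control nerves and 47.8, 45.3 and 49.3 CPM in cko nerves. The genotypes overlapped and all 6 values lay within a narrow band. The log2 fold change was -0.01 with a 95% confidence interval from -0.31 to 0.30 (edgeR adjusted p = 0.981), which leaves a change between 0.808-fold and 1.23-fold possible. *Csf1* was called higher under the scaling to fibroblast and endothelial genes, with a log2 fold change of 0.47 (edgeR adjusted p = 0.0266, range over all alternatives 0.0266 to 0.998), close to the shift of the median of all genes under that scaling (0.47).

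*Ccl2*, the chemokine gene for monocytes, lies at chr11:81849073-81850955 on the plus strand. It had 4, 7 and 3 reads in control and 8, 9 and 5 reads in cko libraries. These values overlap, and 14 reads against 22 were too few for the filter on low counts. Without the filter, its log2 fold change was 0.38 with a 95% confidence interval from -0.78 to 1.54 (edgeR adjusted p = 0.696), which leaves a change from 0.581-fold to 2.9-fold possible. *Il34*, which encodes the other ligand of CSF1R, had 55.6, 58.9 and 67.4 CPM in control and 54.6, 47.2 and 55.1 CPM in cko nerves. The 3 cko libraries were just below the 3 control libraries, and the log2 fold change of -0.22 (SE 0.14, edgeR adjusted p = 0.254) did not pass the threshold, and was -0.13 without control replicate 3. Its direction turned under total-count scaling (0.05) and under the scaling to fibroblast and endothelial genes (0.26). Exons of *Il34* share 97 bases with genes on the opposite strand, and the strand setting of the counting was not given in the sources used here, so that its reads carry that uncertainty.

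*Csf1r*, the receptor for CSF1 and IL-34 (chr18:61265226-61291803, plus strand), had 109, 78.6 and 106 CPM in control nerves. In cko nerves it had 59.7, 57.7 and 70.7 CPM. The highest cko library was below the lowest control library, control replicate 2. The fall was 35.4%, with a log2 fold change of -0.63 (SE 0.13, 95% confidence interval -0.90 to -0.36, edgeR adjusted p = 0.000296). Among the members this call had the smallest adjusted p, and it was lost under 1 of 13 alternatives, the scaling to fibroblast and endothelial genes (log2 fold change -0.16, edgeR adjusted p = 0.413, range over all alternatives 1.55e-05 to 0.413). The exons of *Csf1r* share 871 bases with *Hmgxb3* on the opposite strand, so that reads there may have been dropped or exchanged. *Hmgxb3* rose from 27.6 ± 5.97 to 41.7 ± 1.26 CPM (SD, n = 3 each, log2 fold change 0.57, edgeR adjusted p = 0.0134), a call that was lost with DESeq2 (adjusted p = 0.0599) and without control replicate 2 (0.110).

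Relative to its receptor, *Csf1* was higher in each cko library than in any control library. The ratio of *Csf1* to *Csf1r* within a library was taken from TMM-scaled counts with 0.5 added to each, and the scaling enters it only through this added constant. It was 0.452, 0.608 and 0.443 in control and 0.801, 0.786 and 0.699 in cko libraries. The mean log2 ratio differed by 0.62, next to log2 fold changes of -0.01 for *Csf1* and -0.63 for *Csf1r*. The difference thus restates the fall of *Csf1r* and is no separate result. Any gene whose level did not change would give a similar one. An exact two-sided permutation test gave p = 0.1, which is the smallest value that 3 libraries against 3 can give. For *Ccl2* the ratio was 0.0324, 0.0531 and 0.0149 in control and 0.0612, 0.101 and 0.0326 in cko libraries. Here the genotypes overlapped (difference 0.99 in mean log2 ratio, exact permutation p = 0.2), and the values rest on 3 to 9 *Ccl2* reads per library.

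*Mrc1* and *Cd163* encode scavenger receptors of resident macrophages, the mannose receptor CD206 and the receptor for haemoglobin bound to haptoglobin. *Mrc1* (chr2:14151041-14253684, plus strand) had 92.4, 80.2 and 79.8 CPM in control and 63.1, 60.9 and 56.7 CPM in cko nerves. The libraries of each genotype were close together with a clear gap between them. The log2 fold change was -0.47 (SE 0.13, edgeR adjusted p = 0.00408), and the call was lost under total-count scaling (-0.21, adjusted p = 0.203) and under the scaling to fibroblast and endothelial genes. *Cd163* (chr6:124254669-124280545, plus strand) had 24.5, 33.1 and 29.3 CPM in control and 19.2, 13.7 and 20.5 CPM in cko nerves. cko replicate 2 was the lowest, and the genotypes did not overlap although the gap was small. Its log2 fold change of -0.69 (SE 0.21, edgeR adjusted p = 0.0112) was no longer called with DESeq2, under total-count scaling or the scaling to fibroblast and endothelial genes, or without control replicate 2 or cko replicate 2 (adjusted p over all alternatives 0.00694 to 0.44).

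*Cd68* and *Lyz2* belong to the lysosome and its secretions. *Cd68*, which encodes a glycoprotein of the lysosomal membrane (chr11:69477715-69479655, minus strand), had 22.9, 26.4 and 37.7 CPM in control and 17.9, 14.3 and 18.1 CPM in cko nerves. Control replicate 3 was well above the other libraries. With a log2 fold change of -0.81 (SE 0.22, edgeR adjusted p = 0.00402), *Cd68* fell by the largest factor among the members and was the only 1 of the 9 tested that also passed limits of 0.8 on the log2 fold change and 20 on the base mean, the average scaled count. These limits were passed in this direction by 5.05% of all genes tested. Without control replicate 3 the log2 fold change of *Cd68* was -0.55 and the call was lost (edgeR adjusted p = 0.117), as it was under the scaling to fibroblast and endothelial genes (-0.33, adjusted p over all alternatives 0.00206 to 0.248).

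*Lyz2*, the gene of lysozyme in macrophages (chr10:116714390-116719377, minus strand), had 31.1, 38.7 and 35.0 CPM in control and 25.2, 24.8 and 29.6 CPM in cko nerves. The cko libraries lay below the control libraries by a narrow margin. Its log2 fold change of -0.40 (SE 0.18, edgeR adjusted p = 0.094) did not pass the threshold. Reads of *Lyz2* are uncertain as far as they also match its near-identical copy *Lyz1*, which had between 0 and 9 reads per library.

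*C1qa*, *C1qb* and *C1qc* encode the A, B and C chains of C1q, which opens the classical complement pathway and comes mostly from macrophages. The 3 genes lie side by side on the minus strand within 18.7 kb (chr4:136436044-136454718) and their transcripts were lower together. *C1qa* had 54.8, 46.6 and 55.4 CPM in control and 39.2, 31.0 and 32.1 CPM in cko nerves. *C1qb* had 63.0, 74.6 and 66.1 CPM in control and 44.3, 52.2 and 54.2 CPM in cko nerves. *C1qc* had 65.4, 57.2 and 63.4 CPM in control and 49.9, 54.0 and 39.0 CPM in cko nerves. In each of the 3 genes the cko libraries were below the control libraries, with the narrowest gap in *C1qc*, where cko replicate 2 came close to control replicate 2. The log2 fold changes were -0.61 for *C1qa* (SE 0.16, edgeR adjusted p = 0.00358), -0.44 for *C1qb* (SE 0.14, adjusted p = 0.0146) and -0.39 for *C1qc* (SE 0.15, adjusted p = 0.0419). All 3 calls were lost under total-count scaling (adjusted p 0.0902, 0.348 and 0.537) and under the scaling to fibroblast and endothelial genes (0.604, 0.891 and 0.661), and those of *C1qb* and *C1qc* with DESeq2 (0.0726 and 0.152). *C1qb* was also not called without control replicate 2 or cko replicate 1 (highest adjusted p of the libraries left out 0.106). *C1qc* lost its call without the filter (0.0510) and when any library except cko replicate 2 was left out (highest adjusted p 0.217, without cko replicate 3, where the log2 fold change was -0.25).

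Since the markers moved together, their promoters were searched for GAGGAA, the core of the PU box bound by PU.1, a transcription factor that macrophages depend on. RefSeq sequences of 300 bases around the start of transcription (GRCm38.p6, not the build of the counts) were used for 7 of the 10 genes, without *Csf1r*, *C1qa* and *Ccl2*. The motif or its reverse complement TTCCTC occurred in 4 of the 7, those of *Cd68* (2 matches), *Mrc1* (3), *C1qb* (1) and *C1qc* (1), and in none of *Cd163*, *Lyz2* and *Csf1*. Of all 32851 promoters in the table, 28.3% held a match. A match is a stretch of letters and not a proven binding site. *Cd163* fell and the cko libraries of *Lyz2* lay below control without a match. A link between match and direction was not tested. The 4 promoters with a match are shown with 2 without, those of *Cd163*, which fell, and of *Csf1*, whose libraries overlapped, each on its own strand with the matches in capitals.
*C1qb*, chr4:136886151-136886450, minus strand: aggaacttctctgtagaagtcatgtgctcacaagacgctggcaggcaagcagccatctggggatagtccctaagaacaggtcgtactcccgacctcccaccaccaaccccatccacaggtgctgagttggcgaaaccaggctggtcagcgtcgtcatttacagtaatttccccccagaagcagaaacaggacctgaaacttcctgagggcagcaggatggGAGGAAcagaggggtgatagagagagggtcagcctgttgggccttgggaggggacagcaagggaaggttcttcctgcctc
*C1qc*, chr4:136892865-136893164, minus strand: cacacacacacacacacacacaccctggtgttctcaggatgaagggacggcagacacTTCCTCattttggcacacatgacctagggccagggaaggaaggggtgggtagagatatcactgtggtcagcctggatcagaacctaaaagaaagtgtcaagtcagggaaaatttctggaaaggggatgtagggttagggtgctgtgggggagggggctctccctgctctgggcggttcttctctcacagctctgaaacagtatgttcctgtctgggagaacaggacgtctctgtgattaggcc
*Cd68*, chr11:69666121-69666420, minus strand: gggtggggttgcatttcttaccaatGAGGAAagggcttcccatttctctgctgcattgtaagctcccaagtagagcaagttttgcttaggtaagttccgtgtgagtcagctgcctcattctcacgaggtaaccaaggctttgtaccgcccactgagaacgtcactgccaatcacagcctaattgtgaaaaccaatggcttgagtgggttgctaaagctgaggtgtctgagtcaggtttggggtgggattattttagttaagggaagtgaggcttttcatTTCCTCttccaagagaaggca
*Mrc1*, chr2:14229164-14229463, plus strand: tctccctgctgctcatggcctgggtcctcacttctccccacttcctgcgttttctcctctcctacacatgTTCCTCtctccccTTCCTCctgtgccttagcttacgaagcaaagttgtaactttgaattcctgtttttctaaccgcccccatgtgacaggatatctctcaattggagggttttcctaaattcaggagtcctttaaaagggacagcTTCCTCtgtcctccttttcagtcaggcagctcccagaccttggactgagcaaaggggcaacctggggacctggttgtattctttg
*Cd163*, chr6:124304401-124304700, plus strand: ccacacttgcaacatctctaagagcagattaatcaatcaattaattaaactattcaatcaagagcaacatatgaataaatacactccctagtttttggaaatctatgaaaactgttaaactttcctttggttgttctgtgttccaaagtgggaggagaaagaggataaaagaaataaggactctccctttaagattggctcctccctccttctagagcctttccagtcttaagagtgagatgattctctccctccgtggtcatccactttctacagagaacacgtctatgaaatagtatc
*Csf1*, chr3:107760420-107760719, minus strand: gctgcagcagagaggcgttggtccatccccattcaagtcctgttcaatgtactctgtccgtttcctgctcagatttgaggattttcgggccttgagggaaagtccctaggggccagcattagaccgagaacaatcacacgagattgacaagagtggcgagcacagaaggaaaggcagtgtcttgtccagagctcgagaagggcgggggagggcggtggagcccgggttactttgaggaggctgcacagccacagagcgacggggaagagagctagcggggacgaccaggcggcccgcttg
*Spi1*, which encodes PU.1, had 7, 11 and 16 reads in control and 18, 9 and 6 reads in cko libraries, with a log2 fold change of -0.31 (SE 0.41, edgeR adjusted p = 0.616) that turned without cko replicate 3 (0.08) and under the scaling to fibroblast and endothelial genes (0.18).

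Per kilobase of exon, levels followed the same order in both genotypes. *C1qb* was the most abundant, with 62.4 ± 5.55 CPM per kb in control and 46.2 ± 4.8 in cko nerves (SD, n = 3 each). It was followed by *C1qa*, *C1qc*, *Lyz2*, *Cd68*, *Csf1r*, *Mrc1*, *Csf1*, *Cd163* and *Ccl2*, the last with 2.5 ± 1.19 and 3.24 ± 1.57 CPM per kb. Among neighbours in this order, the libraries of *Lyz2* and *Cd68*, of *Cd68* and *Csf1r* and of *Csf1r* and *Mrc1* overlapped in control nerves. In cko nerves those of *C1qc* and *Lyz2*, of *Cd68* and *Csf1r* and of *Cd163* and *Ccl2* did. *Csf1* had 9.11 ± 0.201 CPM per kb in control and 9.02 ± 0.382 in cko nerves, and *Il34* was higher than *Csf1*, with 31 ± 3.1 and 26.7 ± 2.25 CPM per kb.

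**Figure D2:**
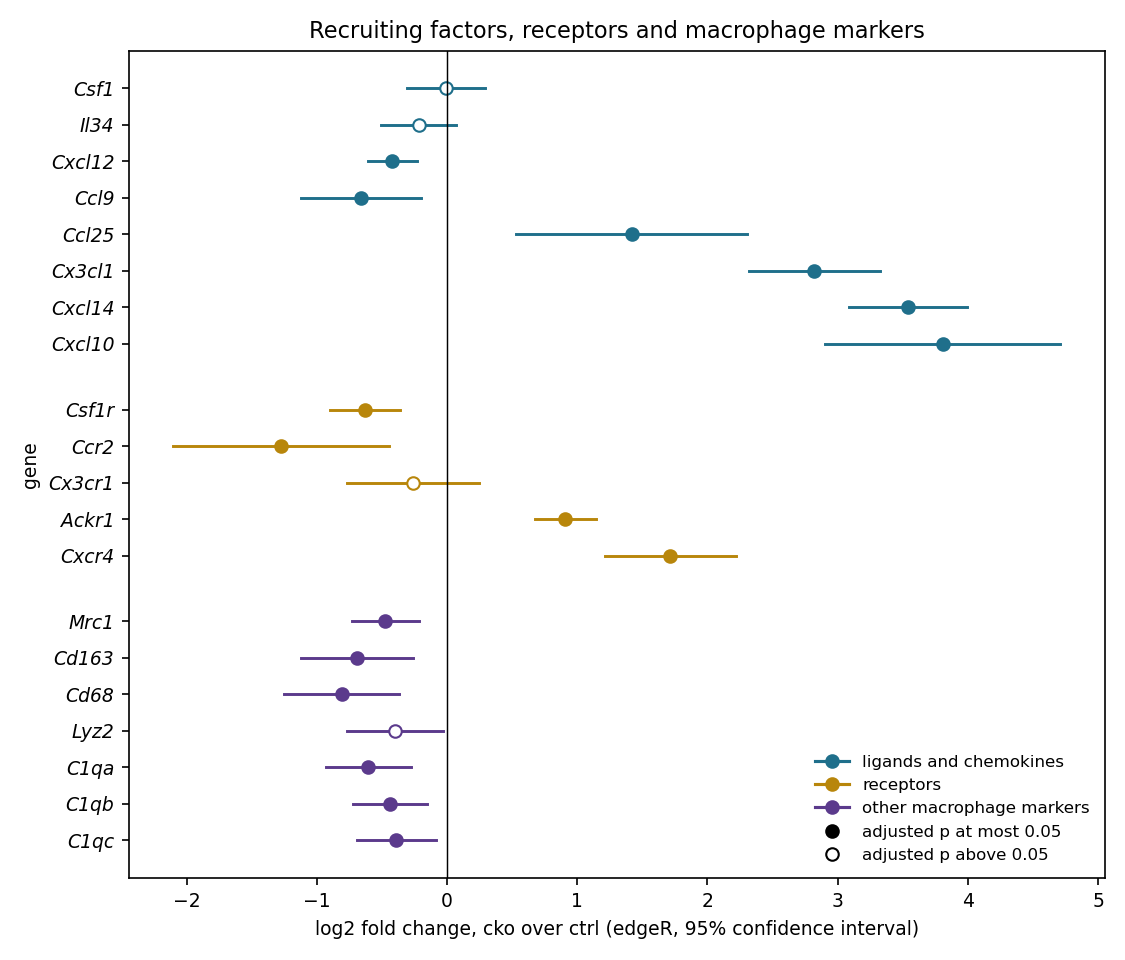
Log2 fold change (x axis, cko over control, edgeR with TMM scaling) with its 95% confidence interval for ligands and chemokines (blue), receptors (ochre) and the other macrophage markers (purple), where filled circles have an adjusted p of at most 0.05. *Csf1* lies at -0.01 and *Cxcl10* at 3.81, while *Csf1r* lies at -0.63. Of the chemokine ligands only those called are shown, and of the chemokine receptors those called and *Cx3cr1*. The others that were tested were not called and are left out.

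Of 20 tested genes on a list of further macrophage genes, 17 had a log2 fold change below 0, with a median of -0.34 against 0.00 for all genes tested, and the median was above 0 (0.14) under the scaling to fibroblast and endothelial genes. Only *Cybb*, a subunit of the NADPH oxidase (log2 fold change -0.72, SE 0.23, edgeR adjusted p = 0.0161), and *Laptm5*, a lysosomal protein of blood cells (-0.59, SE 0.20, adjusted p = 0.0227), were called, both lower, next to 16.2% of all genes tested. Their calls were lost under 6 and 7 of 13 alternatives. With DESeq2 0 of the 20 were called, next to 1287 lower and 1172 higher of the 11371 genes tested. The defining surface markers stayed below the threshold. *Emr1*, which encodes F4/80, had 24.5, 23.6 and 22.6 CPM in control and 15.8, 21.1 and 18.5 CPM in cko nerves (log2 fold change -0.36, SE 0.22, edgeR adjusted p = 0.213). Its libraries did not overlap, yet the difference was small for 30 to 51 reads per library. *Itgam*, the gene of CD11b, had a log2 fold change of -0.39 (SE 0.26, adjusted p = 0.279, from -0.64 without control replicate 2 to -0.20 without control replicate 1) and *Cx3cr1*, the fractalkine receptor, of -0.26 (SE 0.25, adjusted p = 0.459), with overlapping libraries in both. The scaling to fibroblast and endothelial genes turned the direction of these 3 genes, and the fit without control replicate 1 that of *Cx3cr1* (0.13), which had -0.53 without control replicate 3. *Aif1*, which encodes Iba1, had 0 to 3 reads per library and could not be tested.

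Of 11 tested genes of resident macrophages, 4 were lower and 1 was higher, next to 16.2% and 15.5% of all genes tested, with a median of -0.27. *Stab1*, a scavenger receptor, had 92.4, 78.0 and 80.2 CPM in control and 44.8, 42.2 and 53.0 CPM in cko nerves, without overlap (log2 fold change -0.82, SE 0.14, edgeR adjusted p = 1.19e-05), and was not called under the scaling to fibroblast and endothelial genes (-0.35, adjusted p = 0.0723). *Folr2*, the folate receptor beta (-1.17, SE 0.36, adjusted p = 0.0119), and *Cbr2*, a carbonyl reductase (-0.83, SE 0.27, adjusted p = 0.0166), were lower on few reads, and lost their calls under 4 of 12 and 6 of 13 alternatives. *Maf*, a transcription factor that is not limited to macrophages, rose by a log2 fold change of 0.68 (SE 0.09, edgeR adjusted p = 1.01e-07) and was the most abundant gene of the list. With DESeq2, 2 of the 11 were called lower, next to 11.3% of all genes. Also of this list, and named after their values were seen, were *F13a1*, *Lyve1* and *Pf4*. *F13a1* was called lower (log2 fold change -0.67, SE 0.14, edgeR adjusted p = 0.000177), without overlap of the libraries. *Lyve1* and *Pf4* had log2 fold changes of 0.08 and -0.06.

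Among 12 tested genes of lipid-handling macrophages, 8 were lower and 1 was higher, next to 16.2% and 15.5% of all genes tested, with a median of -0.57. *Lipa*, the lysosomal acid lipase, went from 209, 257 and 239 CPM to 84.4, 98.7 and 83.0 CPM (log2 fold change -1.42, SE 0.11, edgeR adjusted p = 2.16e-13). The highest cko value was far below the lowest control value. *Spp1*, or osteopontin, had a log2 fold change of -0.94 (SE 0.15, adjusted p = 5.86e-06) and *Lgals3*, a galectin, of -0.75 (SE 0.26, adjusted p = 0.0222, lost under 6 of 13 alternatives). *Abca1*, which exports cholesterol, rose (0.86, SE 0.10, adjusted p = 2.72e-08). The most abundant gene of the list was *Cd9*, which other nerve cells also express, so that these values are not those of macrophages alone. Inflammatory genes were almost undetected. Of 12, 5 (*Il1a*, *Il1b*, *Il6*, *Ccl4* and *Cxcl2*) had 0 reads in every library, and the only 1 tested was *Cd86*, a co-stimulatory ligand, with a log2 fold change of -0.92 (SE 0.38, edgeR adjusted p = 0.0606). It was called lower with the replicate number as a block (adjusted p = 0.0488) and without control replicate 2 (0.0232).

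In the list of other CSF1R ligands and of signalling downstream of the receptor, 13 genes were tested, 1 was lower and 1 was higher, both below the shares of all genes (16.2% and 15.5%), with a median of -0.29 that was above 0 (0.19) under the scaling to fibroblast and endothelial genes. *Cebpa*, a transcription factor of the myeloid lineage and of fat cells, was lower (log2 fold change -0.91, SE 0.25, edgeR adjusted p = 0.00523, lost under 1 of 13 alternatives). *Grb2*, an adaptor of many receptors, was higher (0.41, SE 0.14, adjusted p = 0.0213, lost under 5 of 13 alternatives). With DESeq2, 1 gene was lower and 0 were higher, next to 1287 and 1172 of the 11371 genes tested.

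Among chemokine ligands other than *Ccl2*, 11 were tested, 4 were higher and 2 were lower, next to 15.5% and 16.2% of all genes tested. Their median was 0.10 and lay between -0.28 (without the filter) and 0.58 over the alternatives. With DESeq2 3 were higher and 1 was lower, next to 1172 and 1287 of the 11371 genes tested. *Cx3cl1*, or fractalkine, the ligand of CX3CR1, had 5.73, 4.49 and 6.21 CPM in control and 40.5, 41.0 and 36.6 CPM in cko nerves (log2 fold change 2.82, SE 0.25, edgeR adjusted p = 1.19e-11). *Cxcl14* had 6.54, 6.73 and 6.21 CPM in control and 62.3, 96.2 and 71.9 CPM in cko nerves (3.54, SE 0.22, adjusted p = 1.16e-15). Both were low in control nerves and separated from cko nerves by a wide gap. *Cxcl10*, an interferon-induced ligand of CXCR3, had 3, 0 and 4 reads in control and 42, 38 and 43 reads in cko libraries, where its log2 fold change of 3.81 (95% confidence interval 2.90 to 4.71) rests on few control reads. Exons of *Cxcl10* share 133 bases with *Art3* on the opposite strand, which fell from 245 ± 17.6 to 106 ± 12.8 CPM (SD, n = 3 each). *Ccl25* was higher on 1 to 30 reads per library (1.42, SE 0.44, edgeR adjusted p = 0.0113, lost under 3 of 12 alternatives). The 2 lower genes, named after their values were seen, were *Cxcl12*, the most abundant of the list (-0.42, SE 0.09, edgeR adjusted p = 0.000592), and *Ccl9* (-0.66, SE 0.23, adjusted p = 0.0238). *Ccl4*, *Cxcl2*, *Cxcl5* and *Ccl19* had 0 reads in every library.

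Of 6 chemokine receptors tested, 2 were higher and 1 was lower (2 without cko replicate 3, next to 17.3% of all genes), next to 15.5% and 16.2% of all genes tested. Their median of -0.09 was above 0 under total-count scaling (0.17) and under the scaling to fibroblast and endothelial genes (0.38). *Ccr2*, the receptor for CCL2 on monocytes, had 13, 23 and 13 reads in control and 8, 4 and 13 reads in cko libraries. In CPM the cko libraries lay below the control libraries, though cko replicate 3 (5.34 CPM) was near control replicate 3 (5.76 CPM). The log2 fold change was -1.28 (SE 0.41, edgeR adjusted p = 0.0148), and the call was lost under 6 of 12 alternatives. *Cxcr4* was higher (1.72, SE 0.25, adjusted p = 9.71e-07), as was *Ackr1*, a chemokine scavenger of venules and red blood cells (0.91, SE 0.12, adjusted p = 8.27e-08). With DESeq2 0 receptors were called lower and 2 higher, next to 1287 and 1172 of the 11371 genes tested.

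Of 16 tested complement genes other than the C1q chains, 12 were called lower and 0 higher by edgeR (12 and 0 by unadjusted p, 6 and 0 with DESeq2, 8 and 0 without cko replicate 3), with a median of -0.58. Of all genes, 16.2% were lower by edgeR, 11.3% with DESeq2 and 17.3% without cko replicate 3. By unadjusted p, 2349 of the 11371 genes tested were lower and 2306 higher. *C4b* (log2 fold change -1.19, SE 0.30, edgeR adjusted p = 0.00221) follows C1q in the classical pathway. *Cd59a*, an inhibitor of the membrane attack complex (-1.14, SE 0.12, adjusted p = 7.76e-10), *Cfd*, the factor D that fat cells secrete (-0.95, SE 0.20, adjusted p = 0.0056), and *C3ar1*, the receptor for C3a on myeloid cells (-0.81, SE 0.26, adjusted p = 0.0157), were the next in size, and *Cfd* and *C3ar1* lost their calls under 2 and 5 of 13 alternatives. The most abundant gene was *Serping1*, the C1 inhibitor, which fibroblasts also produce.

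**Figure D3:**
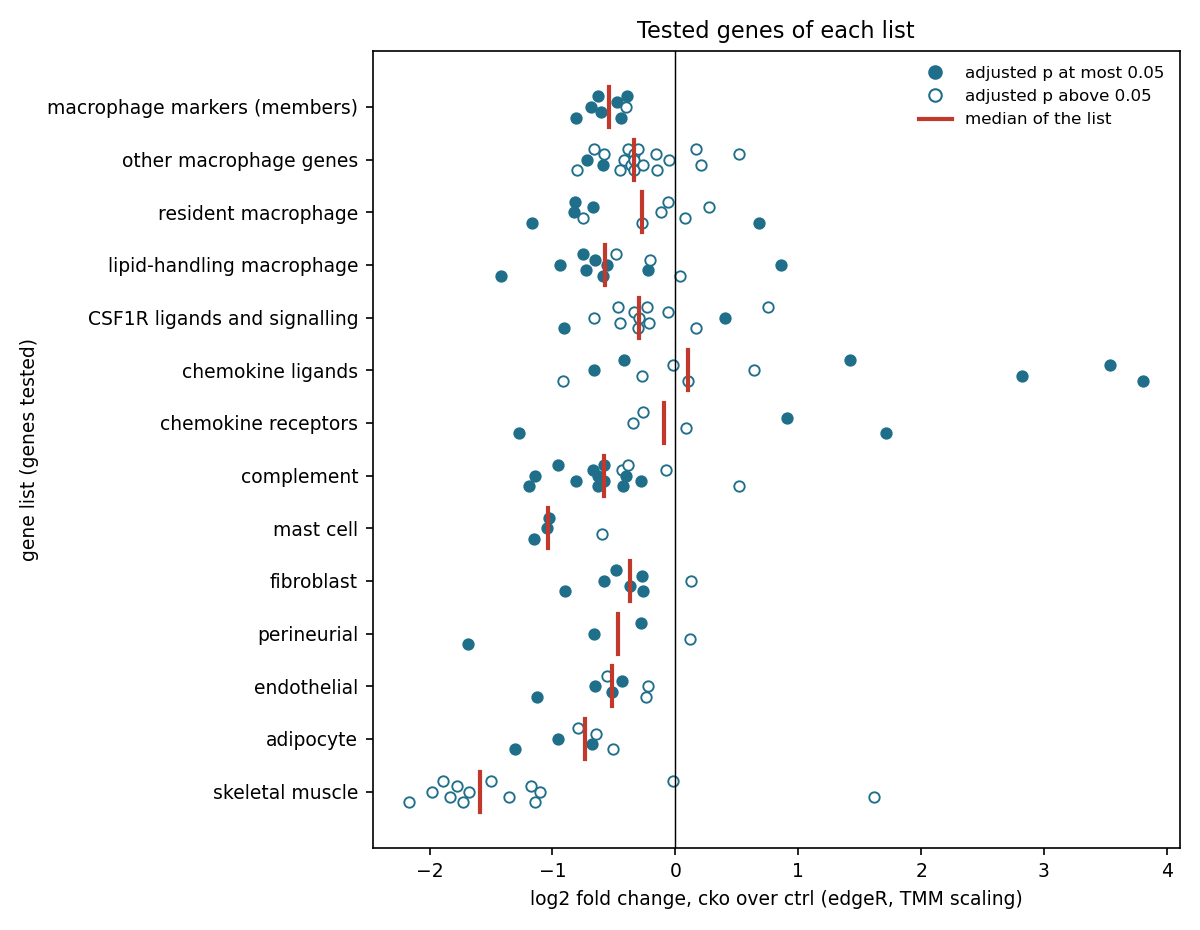
Log2 fold change (x axis, cko over control, edgeR with TMM scaling) of every tested gene in 14 gene lists (y axis), filled where the adjusted p is at most 0.05, with red bars for the medians. The macrophage markers have a median of -0.54, next to -0.58 for complement, -0.37 for fibroblast and -0.51 for endothelial genes, and under the scaling to fibroblast and endothelial genes the medians of the other macrophage, resident macrophage, CSF1R signalling, chemokine receptor, fibroblast and perineurial lists were above 0.

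Lists of other immune cells held few reads. Of 4 tested mast cell genes, 3 were lower and 0 higher (3 and 0 by unadjusted p, 1 and 0 with DESeq2), next to 16.2% and 11.3% of all genes lower by edgeR and DESeq2, with a median of -1.04. These were *Mcpt4* (-1.15, SE 0.40, edgeR adjusted p = 0.0249), *Tpsb2* (-1.05, SE 0.31, adjusted p = 0.0087) and *Cpa3* (-1.03, SE 0.22, adjusted p = 0.00032), all proteases of mast cell granules, with calls lost under 6 of 12, 3 of 12 and 1 of 13 alternatives. By unadjusted p, 2349 of the 11371 genes tested were lower and 2306 higher. Of the monocyte list 2 genes were tested and 1, *Ccr2*, was lower (0 with DESeq2), with a median of -0.66. *Cd4* was the 1 lymphocyte gene tested, with 0, 3 and 6 reads in control and 14, 16 and 22 reads in cko libraries (2.24, SE 0.51, edgeR adjusted p = 0.000785), while *Cd3e*, *Cd3d*, *Cd3g* and *Cd8a* had at most 4 reads in any library. The dendritic cell list had 1 tested gene, *Zbtb46* (0.40, edgeR adjusted p = 0.498), and no neutrophil gene was tested, as none exceeded 5 reads. These genes were named after their values were seen, except *Ccr2*, *Cd4* and the mast cell genes.

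Markers of cells that are not macrophages moved in the same direction, and their part in the results above was not tested. Of 7 fibroblast genes 6 were lower and 0 higher (6 and 0 by unadjusted p, 5 and 0 with DESeq2), next to 16.2% and 11.3% of all genes lower by edgeR and DESeq2. Their median was -0.37, and the list was led by *Col3a1*. The largest changes were those of *Pi16* (log2 fold change -0.90, SE 0.13, edgeR adjusted p = 6.95e-07), *Cd34* (-0.58, SE 0.10, adjusted p = 1.26e-05), *Col3a1* (-0.49, SE 0.06, adjusted p = 5.31e-08) and *Col1a1* (-0.37, SE 0.07, adjusted p = 3.70e-05). The summed level of the fibroblast list was 39929, 39111 and 42247 CPM in control and 30976, 29833 and 29372 CPM in cko nerves. Of 7 endothelial genes 4 were lower and 0 higher (5 and 0 by unadjusted p, 4 and 0 with DESeq2, 6 and 0 without cko replicate 3), next to the same shares of all genes and 17.3% lower without cko replicate 3, with a median of -0.51. The 4 were *Cldn5* (-1.12, SE 0.28, edgeR adjusted p = 0.00181), *Kdr* (-0.66, SE 0.18, adjusted p = 0.00397), *Cdh5* (-0.51, SE 0.10, adjusted p = 0.000119) and *Pecam1* (-0.44, SE 0.10, adjusted p = 0.000649). The endothelial list was led by *Cdh5* and summed to 814, 719.9 and 819 CPM in control and 519, 538 and 663 CPM in cko nerves. The ratio of the mean summed levels was 0.744 for fibroblast and 0.731 for endothelial genes, next to 0.691 for the macrophage markers. No test compared the lists with each other. Perineurial genes (3 of 4 lower, median -0.47 but 0.01 under the scaling to fibroblast and endothelial genes, sum ratio 0.545, or 0.775 without the leading gene *Itgb4*, which Schwann cells also express) and adipocyte genes (3 of 6 lower, median -0.74, sum ratio 0.571, led by *Car3*, itself not called with an edgeR adjusted p of 0.0921) were lower too. Of all genes, 16.2% were lower by edgeR. By unadjusted p, 3 perineurial and 5 adipocyte genes were lower. Of the 11371 genes tested, 2349 were lower and 2306 higher by unadjusted p. With DESeq2, 2 perineurial and 4 adipocyte genes were lower, next to 11.3% of all genes. Without cko replicate 3 they were 2 and 2, next to 17.3%. The called genes were *Itgb4* (-1.69, SE 0.10, edgeR adjusted p = 4.91e-16), *Slc2a1* (-0.66, SE 0.11, adjusted p = 6.52e-06) and *Cldn1* (-0.28, SE 0.10, adjusted p = 0.0335, lost under 7 of 13 alternatives) of the perineurial list, and *Plin1* (-1.31, SE 0.26, adjusted p = 0.000439), *Cfd* and *Adipoq* (-0.68, SE 0.17, adjusted p = 0.00307, lost under 3 of 13 alternatives) of the adipocyte list. Under total-count scaling *Col1a1*, *Kdr*, *Cdh5*, *Pecam1*, *Cldn1* and *Adipoq* lost their calls. The scaling to fibroblast and endothelial genes centres its own 2 lists near 0 by construction and is no test of them. The Schwann cell marker *Sox10* had 493, 543 and 558 CPM in control and 324, 296 and 305 CPM in cko nerves, without overlap (log2 fold change -0.79, SE 0.09, edgeR adjusted p = 8.87e-09). It was not called under the scaling to fibroblast and endothelial genes (-0.30, adjusted p = 0.0578).

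Muscle genes differed widely among the cko libraries. Of 14 muscle genes 0 were called in either direction (0 by unadjusted p and 0 with DESeq2), with a median of -1.59. Of all genes tested, 16.2% were lower and 15.5% higher by edgeR. By unadjusted p, 2349 of the 11371 genes were lower and 2306 higher, and with DESeq2 1287 and 1172. When cko replicate 3 was left out, 13 muscle genes were called lower, next to 17.3% of all genes. Their summed level was led by *Myh4* and came to 4832, 3679 and 2726 CPM in control and to 98.1, 259 and 3396 CPM in cko nerves. In cko replicate 3, with muscle genes near the control level, the macrophage markers summed to 321 CPM, against 319 and 309 CPM in the other cko libraries. Among blood genes, 6 globin genes were listed at 0 and *Alas2* was the 1 gene tested (-0.65, edgeR adjusted p = 0.143).

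**Figure D4:**
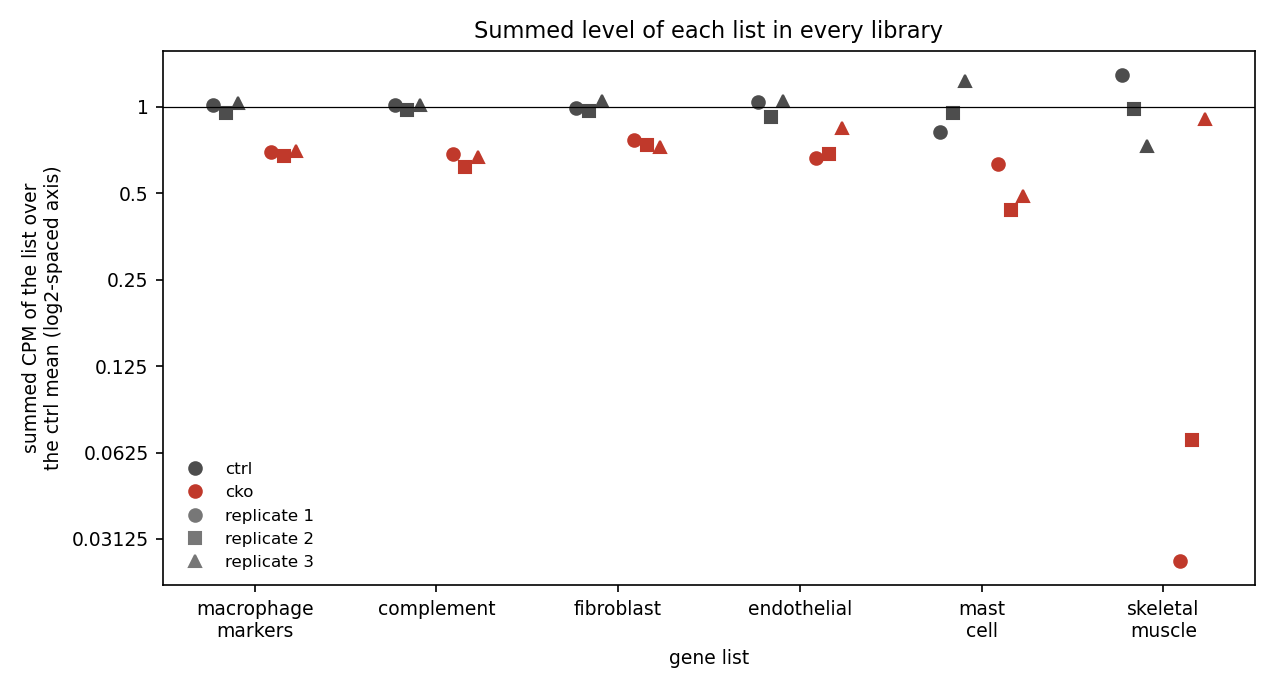
Summed CPM of 6 gene lists in each library divided by the mean of the control libraries (y axis, log2-spaced), with control in grey and cko in red. The macrophage markers of the 3 cko libraries lie together near 0.691, and cko replicate 3 departs from the other cko libraries in skeletal muscle genes.

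The choice of scaling set the size of every change. Total-count scaling raised the median log2 fold change of all genes to 0.26 and the scaling to fibroblast and endothelial genes, which was added after the data had been seen, raised it to 0.47. Fibroblasts of the endoneurium may themselves carry the deletion, so that this reference is not free of the genotype. Relative to that median, the median of the 8 markers was -0.54 under TMM, -0.54 under RLE, -0.54 under total counts and -0.53 under the scaling to fibroblast and endothelial genes. A change of scaling shifts all genes by nearly the same amount. The likeness of these values thus follows by construction and is no test of the markers. The calls moved with the scaling. With total counts 2 of the members were called lower (*Csf1r* and *Cd68*), and relative to fibroblast and endothelial genes 0 were called lower and 1, *Csf1*, was called higher. Of all calls, 51.2% were lower under TMM, 19.2% under total counts and 7.33% under the added scaling.

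**Figure D5:**
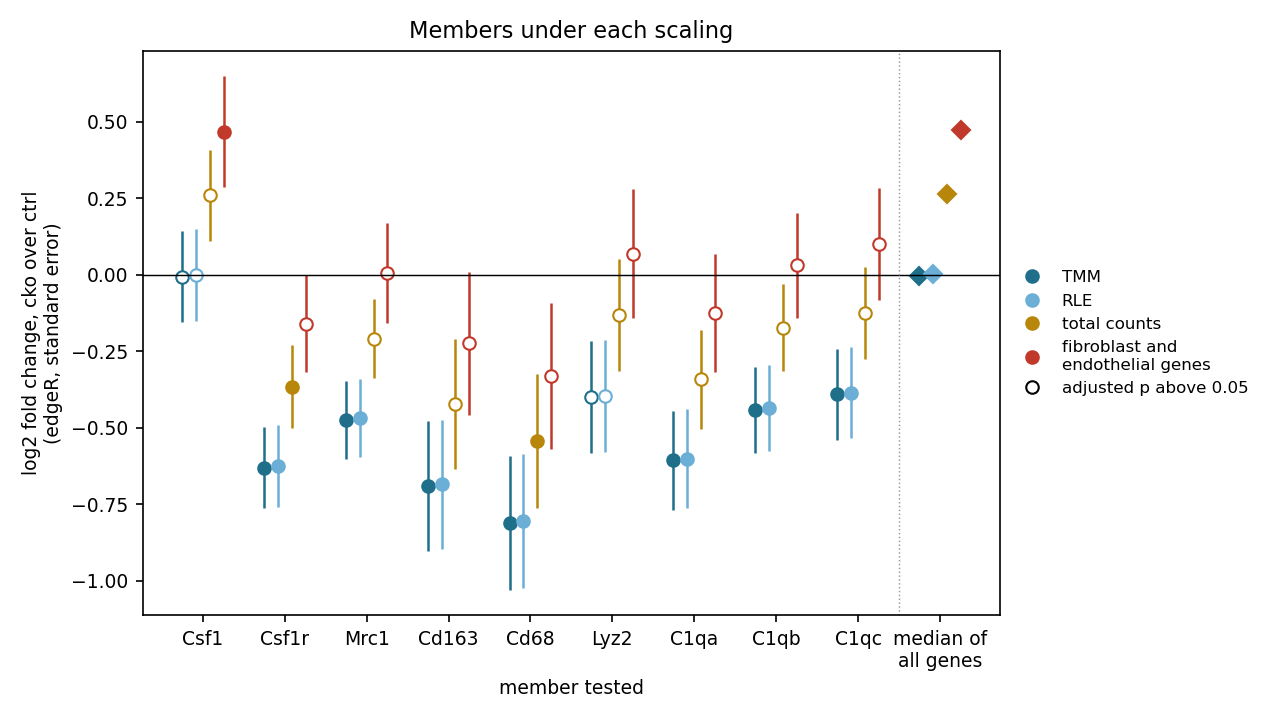
Log2 fold change (y axis, cko over control, edgeR) with its standard error for the 9 tested members under 4 scalings, filled where the adjusted p is at most 0.05, with diamonds for the median of all genes. *Csf1r* moves from -0.63 under TMM to -0.16 under the scaling to fibroblast and endothelial genes, where *Mrc1*, *C1qb*, *C1qc* and *Lyz2* lie above 0.

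The 8 genes whose pattern over the 6 libraries was most like that of the markers were *App*, *Ndrg1*, *Rnf40*, *Vit*, *Npepl1*, *Smtn*, *Sparc* and *Ncln*, out of 6337 tested genes whose base mean reached 50. Likeness was the root mean square difference between a gene's centred log2 CPM and the mean of the markers, and ran from 0.0324 for *App* to 0.0507 for *Ncln*. The markers themselves lay between 0.117 and 0.208 from their own mean. Since the 8 genes were chosen for the smallest distance, their distances and those of the markers cannot be compared. None of the 8 is on a macrophage list, but the limit on base mean left out macrophage genes with fewer reads, such as *Emr1* (40.8). *Rnf40* is the gene deleted in Schwann cells. *App*, the amyloid precursor protein, had 1246, 1242 and 1314 CPM in control and 842, 816 and 873 CPM in cko nerves, and *Sparc*, a matrix protein, had a log2 fold change of -0.54 (SE 0.07, edgeR adjusted p = 3.25e-08). Under the scaling to fibroblast and endothelial genes all 8 lost their calls, *Sparc* with -0.05 (adjusted p = 0.739).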

How the data were processed

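Per the methods of the study, the authors aligned reads to mm9 with TopHat and counted uniquely mapped reads per gene with HTSeq. The files hold whole-number counts. The submitters' processing notes also name mm10 and Bowtie2, and the labels name another library kit than the methods. Annotation and strand setting were not given in the sources used here. No entry lacked a gene name.

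The test was that of edgeR 4.0.16 in R 4.3.3 (filterByExpr, TMM, robust quasi-likelihood fit, genotype as the only term), adjusted by Benjamini-Hochberg over the 11371 genes tested. CPM are counts scaled by the TMM-corrected library size. Standard errors were derived from the F statistic. The *Csf1* to *Csf1r* ratio used scaled counts plus 0.5. Coordinates and exon lengths are from GENCODE vM1 (mm9). Scripts were tested on simulated counts.

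Named were the members, *Rnf40*, up to 4 called genes a list with the largest change, *Emr1*, *Itgam*, *Cx3cr1*, *Aif1*, *Il34* and *Ccr2*, and the 8 most alike genes. Outside this rule, *Sox10*, *Spi1*, *Cd86*, *Hmgxb3* and *Art3* were named and run through the alternatives, and genes named as most abundant, undetected or after their values were seen were not. Members and lists were chosen with earlier results of these data known. Alternatives were RLE, total-count, and fibroblast and endothelial scaling, DESeq2 1.42.0, no filter, at least 10 counts in every library, a replicate block and each library left out. The promoter of *Csf1r* was left out of the search, and no entry was found for those of *C1qa* and *Ccl2*. The ChIP-Seq data of the study were not analysed here.

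The list of Schwann cell genes, apart from *Sox10*, is not reported here.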

Additional observations from a re-analysis of the deposited data

How the results depend on the processing

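Genes called lower numbered 1841 and genes called higher 1757. They were 886 and 3740 with total-count scaling, 414 and 5233 with the scaling to fibroblast and endothelial genes, which was added after the data had been seen, and 574 and 424 with the limits on fold change and base mean. Members called lower numbered 7, and were 2 with total-count scaling, 4 with DESeq2, 0 with the scaling to fibroblast and endothelial genes (with 1 called higher), 1 with the limits, and 4 to 6 when each library was left out, with 4 (*Csf1r*, *Cd68*, *Mrc1* and *C1qa*) without control replicate 2. Scalings shifted log2 fold changes by similar but not identical amounts. Relative to the median of all genes, the muscle median was -1.59 under TMM and -1.71 under the scaling to fibroblast and endothelial genes. The limits leave fewer genes by construction, and the cause of the smaller number with DESeq2 was not tested.

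Under the scaling to fibroblast and endothelial genes, log2 fold changes turned for *Mrc1* (0.00618), *C1qb* (0.0319), *C1qc* (0.10), *Lyz2* (0.0698), *Emr1* (0.11), *Itgam* (0.0875), *Cx3cr1* (0.20), *Il34* (0.26), *Ncln* (0.0133), *Spi1* (0.181), *Col3a1* (0.00324), *Col1a1* (0.112), *Cldn1* (0.207), *Pecam1* (0.0432) and *Csf1* (0.47). With total counts, *Csf1* (0.26), *Cx3cr1* (0.00258) and *Il34* (0.0482) turned. *Csf1* was also above 0 without the filter (0.00177) and with at least 10 counts in every library (0.00858), and lay between -0.0242 and 0.0267 with libraries left out in turn, while *Cx3cr1* lay between -0.53 and 0.13 (without control replicate 1) and *Spi1* between -0.746 and 0.0829 (without cko replicate 3). *Rnf40* lost its call with total counts and under the scaling to fibroblast and endothelial genes. The ratio of *Csf1* to *Csf1r* kept its direction with 1 added in place of 0.5, with the replicate block and with each library left out. It also did with the mean of the markers in place of *Csf1r*. The ratio was not run under the other scalings, the filters or DESeq2.

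With the replicate number as a block, 1837 genes were lower and 1727 higher, and 7 members were lower. Libraries with the same number showed no sign of deviating together (correlations -0.09, -0.02 and -0.06). With 3 libraries per genotype this cannot settle whether the numbers pair the samples. Replicates differed by more than sampling noise (chi-square per degree of freedom 1.78 to 5.21). At this depth *Ccl2*, *Aif1* and most inflammatory genes had too few reads for a test.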
